A study of Drosophila melanogaster with 4 samples.

Results

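The cells described here are neurons with a cholinergic transmitter profile that came along with dissected adult *Drosophila* eyes. The eye itself holds photoreceptors, cone cells and pigment cells, and its photoreceptors use histamine as their main transmitter. Neurons were taken as cells with at least 2 UMIs of *fne*, an RNA-binding protein gene of the ELAV family expressed in neurons, with under 2% of their UMIs from *ninaE* (Rh1 opsin), under 2% from *Pdh* (a pigment cell gene) and none from *repo* (the glial factor). A UMI is 1 captured RNA molecule. Cholinergic neurons were those with at least 2 UMIs of *VAChT*, the vesicular acetylcholine transporter, and none of *VGlut* or *Gad1*, which mark glutamatergic and GABAergic neurons. The gates gave 1610 cholinergic neurons among 3076 gated neurons and 34606 cells that had over 200 genes and under 20% mitochondrial UMIs, of 40076 barcodes in all. The same neurons held 351 glutamatergic cells, 77 GABAergic cells and 1038 that met no single transmitter gate.

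The series is a droplet single-cell RNA-seq survey of whole eyes of the wild-type strain *Canton-S*, with 1 library each from males aged 1, 3 and 7 days after eclosion and from females aged 1 day. All flies were raised at 25 °C, and all eyes were pooled within a library and dissociated with collagenase in the presence of Actinomycin D, which blocks transcription. No transgene, mutation or sort was used. Since each age and sex is 1 library, a difference between ages or sexes cannot be told apart from a difference between libraries. The tests below treat the 4 libraries as the replicates, with library as a block. Their p-values thus measure how even a difference between classes is over libraries that also differ in age or sex.

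Photoreceptors release histamine, which opens the chloride channel encoded by *ort* on some of the lamina monopolar neurons below the retina. Of the lamina monopolar neurons, L1 is glutamatergic and L2 to L5 express cholinergic genes. Known factors set them apart, with the nuclear receptor gene *svp* in L1, the BTB factor gene *bab2* in L2, the zinc finger gene *erm* in L3, the homeodomain genes *bsh* and *ap* in L4, and *bsh* with the POU gene *pdm3* in L5. Neurons of the optic lobe find their partners in part through pairs of immunoglobulin proteins at the cell surface, the Dprs with the DIPs and the Beats with the Sides.

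The libraries gave 767, 258 and 186 cholinergic cells from 1-, 3- and 7-day males and 399 from 1-day females. Their median depth was 3809, 4242, 3283 and 6874 UMIs in the same order, with 1470, 1466, 1303 and 1950 genes. Levels are given as CPM, the UMIs of a gene summed over the cells of a class in a library and scaled to the summed UMIs of all genes, in the order male 1, 3 and 7 days and then female 1 day, and the summed UMIs of the cholinergic cells were 3724887, 1366276, 605330 and 3210096. Library pairs shared 12 to 37 cell barcodes, and none of the shared barcodes was a cholinergic cell in both. Cholinergic cells made up 53.6%, 47.8%, 39.5% and 63.0% of the gated neurons. Barcodes with at least 1000 UMIs were also thinned to 1000 UMIs and gated again, which left 703, 283, 234 and 366 gated neurons. The shares among these were 36.8%, 26.1%, 25.2% and 24.3%. The female library, which had the highest median depth, thus stood highest before thinning and lowest after it.

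The members were chosen by their own counts of *fne*, *VAChT*, *VGlut*, *Gad1*, *ninaE*, *Pdh* and *repo*, so the levels of these genes are a description only. *fne* stood at 1667, 1798, 1726 and 1968 CPM and *VAChT* at 2027, 1295, 1495 and 1264 CPM. Just inside the gate, 60, 42, 42 and 38 cholinergic cells had exactly 2 UMIs of *VAChT*, and just outside it 70, 41, 40 and 20 gated neurons had 1. *ChAT*, which encodes the enzyme that makes acetylcholine, stood at 871, 507, 522 and 946 CPM in the cholinergic cells, against 3.44, 8.71, 23.9 and 0 CPM in the glutamatergic cells. The *ChAT* level is no independent check, because the *VAChT* gene (3R:18705501-18718916, plus strand) lies inside *ChAT* (3R:18705501-18732344, plus strand) and both begin at the same base in the BDGP6 (dm6) annotation. The choline transporter gene *ChT* was sparse, at 8.59, 45.4, 4.96 and 5.61 CPM. Over the 10 pan-neuronal genes listed, the summed level was 9308 to 13261 CPM in the cholinergic cells and 1972 to 3363 CPM in cells with *ninaE* at 5% or more of their UMIs. *fne* is on this list. The gate required it in the neurons, and the *ninaE*-high cells were taken without any UMI of *fne* or *repo*. Part of this gap was thus fixed in advance.

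Genes that mark other cells were counted in these neurons too. The 13 photoreceptor genes detected well enough to test are part of a list of 16. The summed level of these 16 was 5856 to 9169 CPM in cholinergic cells and 1758 to 20025 CPM in glutamatergic cells. It was 2086 to 53321 CPM in GABAergic cells and 255651 to 345206 CPM in *ninaE*-high cells. *ninaE* itself is on this list. Its share was limited by the gate in the neurons, and the *ninaE*-high cells were chosen for it. Part of the gap between the neurons and the *ninaE*-high cells was thus fixed in advance. Of the cholinergic cells, 13, 2, 3 and 7 had at least 1% of their UMIs from *Rh3* to *Rh6*, and these cells held 93.0%, 88.5%, 91.5% and 95.8% of all UMIs of those opsins. Glial markers summed to 278 to 629.5 CPM in the cholinergic cells, 31.9 to 263.9 CPM in the glutamatergic cells and 35.7 to 259 CPM in the GABAergic cells, with *repo* at 0 by the gate. Pigment and cone cell markers, with *Pdh* limited by the gate, summed to 490 to 2066 CPM in the cholinergic cells. They reached 750 to 2247 CPM in the glutamatergic cells, 1027 to 4265 CPM in the GABAergic cells and 1508.5 to 3448 CPM in the *ninaE*-high cells. Hemocyte markers stood at 0 to 0.3 CPM and muscle markers at 0.6 to 2.7 CPM in the cholinergic cells.

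The histamine receptor gene *ort* (3R:19659748-19663672) was found in every library. Its level in cholinergic neurons was 361, 219, 282 and 282 CPM, against 753, 207, 663 and 395 CPM in glutamatergic neurons. The ranges overlapped, and the difference did not pass the test (log2 fold change -0.68, edgeR adjusted p = 0.13). At least 1 UMI of *ort* was found in 52.4%, 47.3%, 52.2% and 51.1% of cholinergic cells and in 73.2%, 44.6%, 76.9% and 68.5% of glutamatergic cells. Photoreceptors should lack it, and *ninaE*-high cells held it in 0.351%, 0.104%, 0.0625% and 0.178%, at 0.146 to 0.446 CPM and a median depth of 8312, 4293, 1906 and 8516 UMIs. The 755, 256, 175 and 397 cholinergic cells with at least 1000 UMIs were also thinned to that depth. Of these, 22.5%, 17.97%, 25.7% and 18.1% still had a UMI of *ort*. The other histamine-gated channel, *HisCl1*, showed the opposite order, with 11.8, 6.59, 6.61 and 7.16 CPM in the cholinergic cells and 35.4 to 66.1 CPM in the *ninaE*-high cells.

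The known lamina factors differed widely in level. The cholinergic cells held *erm* at 157, 79.0, 66.1 and 113 CPM, *zfh1* at 100.1, 63.7, 52.9 and 73.5 CPM and *bab2* at 45.6, 24.9, 54.5 and 46.4 CPM. *bsh* stood at 120.0, 46.1, 44.6 and 113 CPM. *pdm3* was at 186, 49.0, 36.3 and 102 CPM and *ap* at 70.9, 7.32, 9.91 and 22.7 CPM, so these last 3 genes were highest in the 1-day libraries and lower in both older ones. *svp*, the L1 factor, was near absent at 1.34, 0.732, 6.61 and 1.56 CPM, with 15 UMIs over all 1610 cells.

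**Figure D1:**
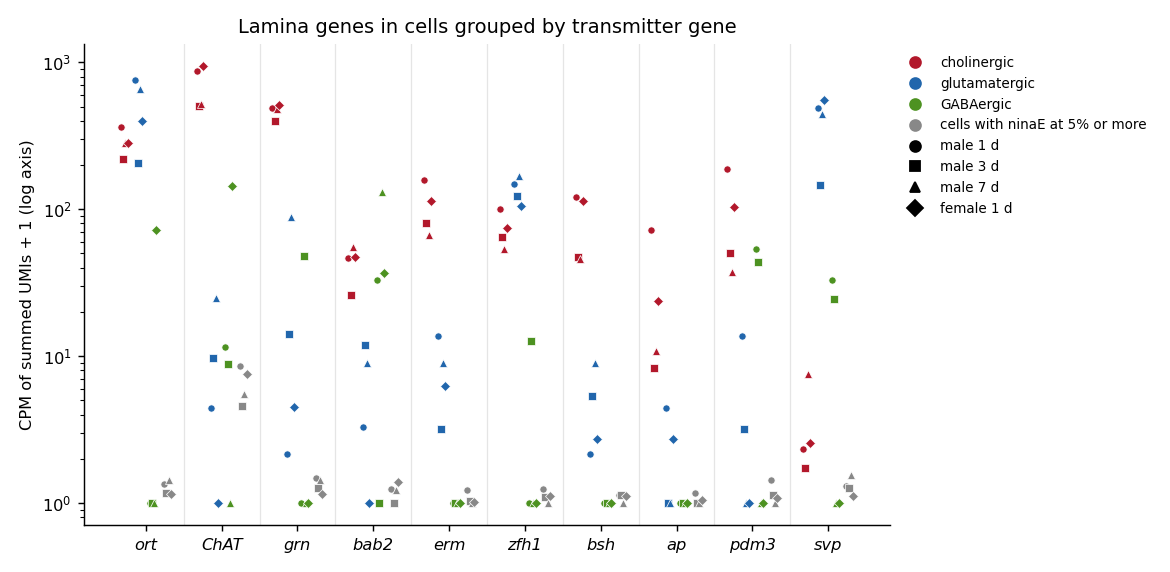
Level of lamina genes in each library, as CPM of summed UMIs plus 1 on a log axis, in cholinergic, glutamatergic and GABAergic neurons and in cells with *ninaE* at 5% or more of their UMIs; marker shape gives the library. *grn*, *erm*, *bsh* and *pdm3* sat higher in every cholinergic library than in any glutamatergic one, *svp* the other way round, and *ort* overlapped.

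The transcription factors with the highest levels were not those that mark lamina subtypes. Of 100 factors listed, 52 had a UMI in all 4 libraries and 12 were at 0 throughout. The zinc finger gene *jim* was the highest, at 2270.4, 2101, 3448 and 2062 CPM, followed by the zinc finger gene *mamo* at 951, 893, 758 and 1062 CPM and the ecdysone-induced nuclear receptor gene *Eip75B* at 842, 659, 1006 and 991 CPM. The BTB factor genes *lola* and *chinmo* came next, and *jim* was highest in the 7-day males. The NK2-class homeodomain gene *scro* was at 799, 459.6, 550.1 and 823 CPM and the GATA factor gene *grn* at 489, 399.6, 484 and 514 CPM, with *grn* the more even of the pair. *pros*, a homeodomain gene, was among the 10 highest by its mean but uneven, at 189.5, 989.6, 6.61 and 102 CPM. The 3-day male library was far above the others. There 35 of 258 cells held *pros*, and 66.3% of its UMIs lay in 10 cells.

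Among receptors, several transmitters were covered. The nicotinic subunit gene *nAChRbeta1* had the highest mean of the acetylcholine receptors over the libraries, at 333, 691, 393 and 317 CPM, but in 1-day males *nAChRalpha4* (658 CPM) and *nAChRalpha7* (468 CPM) stood above it. The glutamate-gated chloride channel gene *GluClalpha* stood at 861, 404, 560.0 and 638 CPM. The GABA-gated channel gene *Rdl* varied more between libraries, at 549, 849.8, 122 and 275 CPM. Of the amine receptors, *DopEcR*, which binds dopamine and ecdysteroids, was at 798, 867, 1039 and 667 CPM and the dopamine receptor gene *Dop2R* at 417, 1042, 87.6 and 166 CPM. For *Rdl* and *Dop2R* the 3-day male library was the highest and the 7-day male library the lowest. In 3-day males 62.6% of the *Dop2R* UMIs lay in 10 cells, and 67 of the 258 cells had 1 or more. For *nAChRbeta1* 37.8% of the 3-day male UMIs lay in 10 cells, and 178 cells had 1 or more. Of 39 peptide receptors, 17 had a UMI in every library and 4 (*AkhR*, *CapaR*, *Lgr3* and *PK1-R*) had none in any. The allatostatin A receptor gene *AstA-R1* was the highest of them, at 636, 296, 415 and 662 CPM, with the PDF receptor gene *Pdfr* at 282, 264, 354 and 543 CPM. Of 38 neuropeptide genes, 15 had a UMI in every library and 11 had none in any.

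Adhesion genes were broadly detected. Of 32 *dpr* and *DIP* genes 23, of 22 *beat* and *side* genes 14, and of 69 other adhesion and guidance genes 59 had a UMI in every library. *dpr6* led its family at 683, 416, 588 and 470.4 CPM, before *dpr7* at 351, 539, 487 and 381 CPM. In the other families *beat-IIIb* stood at 309.5, 309.6, 419.6 and 336 CPM and *side-III* at 419.9, 253, 279 and 215 CPM. *tutl*, an immunoglobulin family gene with a role in the spacing of axons, was at 943, 632, 569.9 and 835 CPM, and the receptor phosphatase gene *Ptp99A* at 564, 496, 479 and 635 CPM.

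The cholinergic neurons were then compared with the glutamatergic neurons of the same libraries. *AstA-R1* and *AstA-R2*, *grn*, *bsh*, *erm* and the secreted guidance cue gene *NetA* were higher in cholinergic cells, and *svp* and the uncharacterised gene *CG46448* were lower. A gene was called where the edgeR adjusted p was under 0.05 and the log2 fold change was at least 1 either way. Of 4675 genes tested, 240 (5.13%) were called higher and 107 (2.29%) lower in the cholinergic cells.

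Of the listed transcription factors 43 of 100 could be tested, and 8 were higher and 2 lower. *grn* had 489, 399.6, 484 and 514 CPM in cholinergic neurons, against 1.15, 13.1, 87.8 and 3.50 CPM in glutamatergic neurons (log2 fold change 5.33 ± 0.57 (SE), edgeR adjusted p = 5.2e-06, higher in 4 of 4 libraries). *erm* had 157, 79.0, 66.1 and 113 CPM, against 12.6, 2.18, 7.99 and 5.25 CPM in glutamatergic neurons (log2 fold change 3.97 ± 0.31 (SE), edgeR adjusted p = 1e-06, higher in 4 of 4 libraries). *svp* had 1.34, 0.732, 6.61 and 1.56 CPM, against 484, 146, 447 and 556 CPM in glutamatergic neurons (log2 fold change -7.83 ± 0.37 (SE), edgeR adjusted p = 4.1e-10, lower in 4 of 4 libraries). The groups of libraries were apart for all 3 genes, and the 7-day glutamatergic value of *grn* was the nearest to the other side. *bsh* (log2 fold change 5.14), *pdm3* (4.39), *bab2* (3.29) and *jim* (1.97) were also called higher. *Eip74EF* (1.19) and *Mef2* (1.03) completed the 8, and the call of each was lost without the 3-day males among other settings. The Sox gene *D* (-3.66) was lower, with overlapping values since it was at 0 in both groups at 7 days.

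Among the receptors the change was mixed by family. Of the acetylcholine receptors 1 was higher and 1 lower of 10 tested (list of 13), of glutamate receptors 2 and 2 of 7 (list of 10), of GABA receptors 1 and 0 of 7 (list of 7), of amine receptors 5 and 1 of 16 (list of 17), and of peptide receptors 4 and 1 of 9 (list of 39). *AstA-R1* had 636, 296, 415 and 662 CPM in cholinergic neurons, against 12.6, 15.2, 71.9 and 1.75 CPM in glutamatergic neurons (log2 fold change 5.04 ± 0.47 (SE), edgeR adjusted p = 1e-06, higher in 4 of 4 libraries). *AstA-R2*, the other receptor of allatostatin A, had 95.3, 51.2, 71.0 and 108 CPM, against 0, 2.18, 0 and 0 CPM in glutamatergic neurons, where 1 UMI was counted in all (log2 fold change 7.11 ± 0.56 (SE), edgeR adjusted p = 1e-06, higher in 4 of 4 libraries). *GluClalpha* had 861, 404, 560.0 and 638 CPM, against 101, 126, 63.9 and 35.0 CPM in glutamatergic neurons (log2 fold change 2.98 ± 0.30 (SE), edgeR adjusted p = 2.6e-06, higher in 4 of 4 libraries). In the other direction, the muscarinic receptor gene *mAChR-A* had 130.2, 92.2, 66.1 and 73.8 CPM in cholinergic neurons, against 736, 233, 455 and 324 CPM in glutamatergic neurons (log2 fold change -2.15 ± 0.25 (SE), edgeR adjusted p = 1.3e-05, lower in 4 of 4 libraries). No library crossed the gap for any of these receptors. The serotonin receptor gene *5-HT2B* (4.60) and the FMRFamide receptor gene *FMRFaR* (2.11) were higher too, and *5-HT2A* (-1.60) was lower.

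Surface molecules of the partner families were called on both sides. Of 26 *dpr* and *DIP* genes tested 5 were higher and 3 lower, with a median log2 fold change of 0.42 beside -0.01 over all genes, and of 21 *beat* and *side* genes 3 were higher and 2 lower (median -0.12). *dpr6* had 683, 416, 588 and 470.4 CPM in cholinergic neurons, against 67.7, 100.2, 95.8 and 17.5 CPM in glutamatergic neurons (log2 fold change 3.13 ± 0.35 (SE), edgeR adjusted p = 7.7e-06, higher in 4 of 4 libraries). *dpr2* had 17.4, 25.6, 1.65 and 10.9 CPM, against 394, 172, 279.5 and 301 CPM in glutamatergic neurons (log2 fold change -4.28 ± 0.36 (SE), edgeR adjusted p = 4.2e-07, lower in 4 of 4 libraries). *dpr6* and *dpr2*, members of 1 family, thus stood on opposite sides. The DIPs split in the same manner, with *DIP-beta* (2.96) higher and *DIP-lambda* (-4.36) lower. Of the 52 other adhesion genes tested, 13 were higher, with *18w* (4.68), *Toll-7* (3.33) and *robo2* (2.70) among them, and 1, the secreted synaptic protein gene *hig* (-2.17), was lower.

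Outside the lists, *bru2*, an RNA-binding protein gene, was higher (log2 fold change 6.07), as was *NetA* (5.62). *CG46448* averaged 6.19 ± 4.27 CPM in cholinergic neurons and 3641 ± 731 CPM in glutamatergic neurons (SD, n = 4 each; log2 fold change -9.35 ± 0.41 (SE), edgeR adjusted p = 2e-10, lower in 4 of 4 libraries). *CG33777* had no UMI in the cholinergic cells and 49 in the glutamatergic cells, which put it at least 71.7-fold lower against a floor of 3 UMIs over the group. The calls of 3 genes rested on a few clusters of cholinergic cells. The opsin gene *Rh6* was called higher at 574, 807, 1282 and 923 CPM, against 35.6, 21.8, 23.9 and 24.5 CPM in glutamatergic neurons, and *Rh3* (1.31) and the odorant-binding protein gene *Obp44a* (5.50) were called higher as well. None of the 3 was called once the clusters led by opsins, *Obp44a*, *CG2157* or *Pdh* were left out, where *Rh3* stood at -1.93 and *Obp44a* at 0.28. Of the 3 glial markers tested *nrv2* (2.71) and *Eaat1* (1.74) were called higher, and *nrv2* stood at -0.64 and *Eaat1* at 1.75 without those clusters. The source of these RNAs was not tested.

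**Figure D2:**
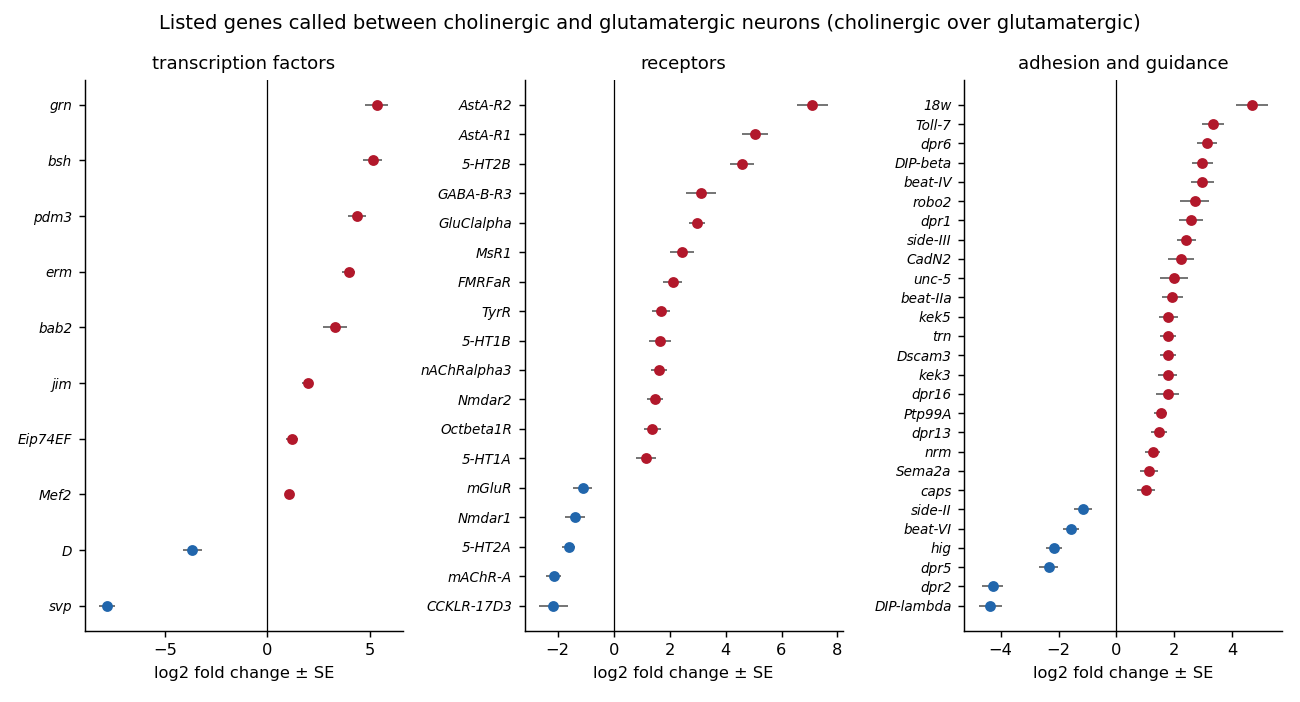
Log2 fold change of cholinergic over glutamatergic neurons with its standard error for the listed transcription factors, receptors and adhesion genes that were called, red where higher and blue where lower in cholinergic neurons. *grn* and *AstA-R2* stood at the upper ends of their lists and *svp* and *DIP-lambda* at the lower ends of theirs.

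The 77 GABAergic neurons were few, with 28, 39, 3 and 7 cells per library, and gave another point of comparison. Of 4675 genes, 294 (6.29%) were higher and 165 (3.53%) lower in the cholinergic cells. With the 2 libraries that had 10 or more GABAergic cells these counts were 114 and 55, and without the 1-day males 195 and 88. Markers of other cells moved with this comparison, and their part in it was not tested. The 3 glial markers tested, *Eaat1* (5.38), *nrv2* (2.15) and *Gs2* (1.502), were called higher in the cholinergic cells, *Gs2* not with the 2 larger GABAergic libraries alone. Of 13 photoreceptor genes tested *Rh3* (4.36) and *Rh6* (4.35) were called higher, and neither was without the cells that held 1% or more of opsin UMIs, where they stood at 0.02 and 1.07. *erm*, *bsh* and *NetA* had no UMI in any GABAergic cell and were at least 15.8-, 13.02- and 14.8-fold higher in the cholinergic cells. *scro* had 799, 459.6, 550.1 and 823 CPM in cholinergic neurons, against 0, 0, 0 and 35.7 CPM in GABAergic neurons (log2 fold change 7.66 ± 0.62 (SE), edgeR adjusted p = 5.6e-07, higher in 4 of 4 libraries). *ort* had 361, 219, 282 and 282 CPM, against 0, 0, 0 and 71.3 CPM in GABAergic neurons, from 2 UMIs (log2 fold change 5.55 ± 0.68 (SE), edgeR adjusted p = 4.4e-05, higher in 4 of 4 libraries).

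The genes lower in cholinergic than in GABAergic neurons included transmitter receptors. Of the acetylcholine receptors tested, 0 were higher and 6 of 10 lower, among them *nAChRalpha5* with 77.0, 253, 3.30 and 42.0 CPM in cholinergic neurons, against 1873, 844, 1168 and 963 CPM in GABAergic neurons (log2 fold change -3.85 ± 0.50 (SE), edgeR adjusted p = 7.5e-05, lower in 4 of 4 libraries). The Sox genes *Sox21b* (-6.32) and *D* (-5.30) were lower, as was the LIM-homeodomain gene *Lim3* (-5.59), whose call was lost with the 2 larger GABAergic libraries alone. No *dpr* or *DIP* gene was called higher and 7 of 26 were called lower, with *DIP-delta* (-4.63) the lowest of those named here and lost under the same setting. Of the *beat* and *side* genes 2 were higher and 8 lower of 21.

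Within the cholinergic neurons the lamina factors fell on several sets of cells. *erm* was found in 370 cells and *zfh1* in 312, and 268 cells held both, which is 72.4% of the *erm* cells and 85.9% of the *zfh1* cells. *bsh* was found in 366 cells. Of these, 117 (32.0%) also held *ap* and 168 (45.9%) also held *pdm3*, while *ap* and *pdm3* met in 21 cholinergic cells in all. *ort* was found in 825 cells, with 242 of the 370 *erm* cells (65.4%), 230 of the 279 *bab2* cells (82.4%) and 48 of the 366 *bsh* cells (13.1%) among them. *erm* and *bsh* met in 27 cells. A cell without a UMI may still express a gene at these depths, so absence from a cell is a limit on detection only.

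Cells were divided by these genes into groups that do not overlap. *ort* without *erm* or *bsh* was seen in 553 cells (34.3% of 1610), or 30.9%, 36.4%, 44.1% and 35.1% by library. *erm* without *bsh* was seen in 343 cells, or 23.2%, 17.8%, 13.98% and 23.3%. *bsh* with *pdm3* and neither *ap* nor *erm* took 151 cells, or 8.87%, 5.04%, 3.23% and 16.04%. *bsh* with *ap* and neither *pdm3* nor *erm* took 105 cells, or 9.52%, 1.55%, 1.08% and 6.52%. Both *bsh* groups, which need a UMI of *ap* or *pdm3*, were thus smaller in the 3- and 7-day males than in either 1-day library. The clusters with *bsh* and *ap* described below fell less steeply with male age. They held 119 of 767, 24 of 258, 16 of 186 and 42 of 399 cells in the same library order. The cluster with *bsh* and *pdm3* held 81, 20, 13 and 65 cells. None of *ort*, *erm* and *bsh* was found in 348 cells, or 20.2%, 32.9%, 32.3% and 12.03%. Depth moved with these groups, with a median of 2403, 3415, 2067.5 and 4626.5 UMIs in the cells with none of the 3 genes and 6566, 4892, 3555.5 and 10120.5 UMIs in the cells with *ort* alone.

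**Figure D3:**
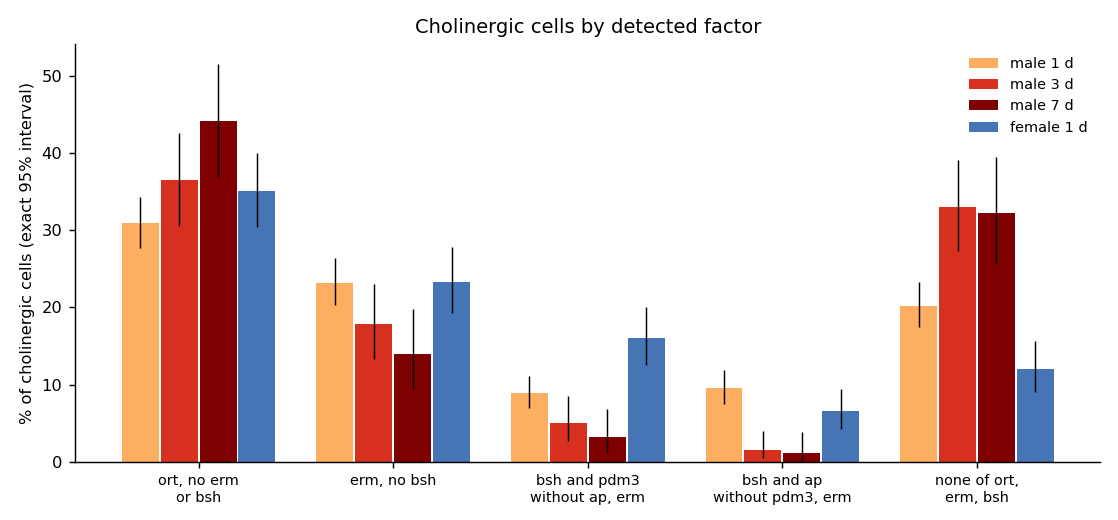
Share of cholinergic cells in each library with a given set of detected factors, as a percent with exact 95% binomial intervals that cover counting error only. Cells with a UMI of both *bsh* and *ap* and none of *pdm3* or *erm* made up 9.52% of the 1-day male cells. Their share was 6.52% in 1-day females, and 1.55% and 1.08% in 3- and 7-day males. These shares depend on detection of *ap*, and the clusters with *bsh* and *ap* fell less steeply.

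Clustering the 1610 cells gave 19 clusters, given here by number and gene level as a description. In 4 clusters of 574 cells *ort* stood at 420 to 524 CPM and *bab2* at 42.8 to 78.3 CPM, with little *erm* or *bsh*. Cluster 14, with 43 cells, was 1 of these 4 and was led by *Nplp2*, *BomS2*, *Obp99c* and *Pdh*. It held *Pdh* at 5431 CPM, against 834 CPM in the other clusters. In 5 clusters of 371 cells *erm* stood at 215 to 742 CPM and *zfh1* at 162 to 513 CPM, with *ort* at 171 to 508 CPM. In these 5, *bab2* stood at 0 to 68.3 CPM, with 68.3, 50.5 and 26.5 CPM in clusters 11, 15 and 13. Clusters 11 and 15 had median depths of 10648 and 16390 UMIs. Whether their barcodes held more than 1 cell was not tested. Clusters 6 and 10, with 201 cells, held *bsh* at 766 to 808 CPM, *ap* at 261 to 382 CPM and *grn* at 1514 to 1767 CPM, with little *ort* (24.3 to 48.3 CPM). Cluster 2, with 179 cells from all 4 libraries, held *bsh* at 575 CPM and *pdm3* at 1143 CPM, but *grn* at 29.9 CPM, the lowest *grn* of these 4 sets. The clusters followed the libraries as well as the factors. The 1-day males gave 87.4% of cluster 1, 91.3% of cluster 4 and 98.1% of cluster 11, and the females gave 97.3% of cluster 5 and 97.1% of cluster 15. Clusters 3 and 13 came from the 3- and 7-day males alone.

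The 7 other clusters held 285 cells. Clusters 7 and 16, with 101 and 31 cells, held the homeodomain gene *ct* at 2932 and 2967 CPM, and cluster 7 was led by *beat-Ic*, *ct*, *toy* and *beat-Ib*. Cluster 9, with 59 cells of which 42 came from 3-day males, was led by *FMRFa*, *pros*, *AstC* and *Antp* and had no UMI of *ort*. Cluster 12, with 48 cells, was led by *Obp44a*, and cluster 17, with 17 cells, by *Rh6*, *Rh3*, *Rh4* and *Rh5*, the opsin genes of R7 and R8 photoreceptors. Cluster 18, with 16 cells, was led by *CG2157* and *CG12655*. Cluster 19, with 13 cells, held *pdm3* at 832 CPM together with *erm* at 521 CPM.

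**Figure D4:**
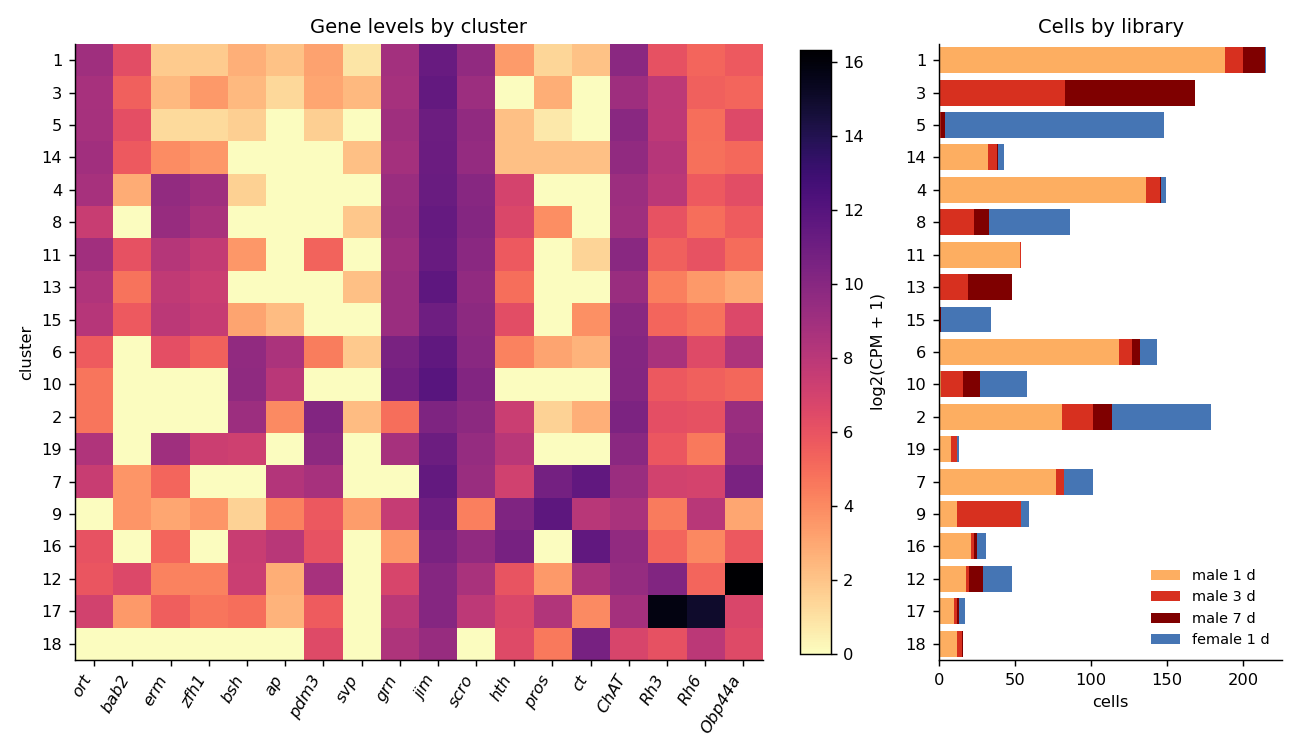
Left, log2(CPM + 1) of 18 genes in each of the 19 clusters of cholinergic cells; right, the number of cells each library gave to each cluster. *erm* and *zfh1* were high in the same rows, *bsh* was high with *ap* in clusters 6 and 10 and with *pdm3* in cluster 2, and several clusters came almost wholly from 1 library.

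Cells with and without a UMI of 1 factor were next compared within each library. The gates of *ort*, *erm* and *bsh* divide the same 1610 cells, so the comparisons below are not independent of each other, and the gate gene itself is no result. Depth differed between the groups. The *ort*-positive cells had medians of 5972.5, 5145, 3655 and 10165 UMIs, against 2799, 2802, 2014 and 4284 UMIs in *ort*-negative cells. For *bsh* the order was turned round, with 3102, 2034, 1439.5 and 4132.5 UMIs in *bsh*-positive cells, against 4346.5, 4565, 3381 and 9010 UMIs in *bsh*-negative cells. The *erm*-positive cells had 4472, 3582, 4779.5 and 6320 UMIs, against 3512, 4283.5, 3111.5 and 7355 UMIs in *erm*-negative cells. The part of depth in the results below was not tested.

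The *ort*-positive cells (402, 122, 97 and 204) carried less of several acetylcholine and amine receptor genes and of many surface genes than the *ort*-negative cells. Of 5129 genes tested, 107 (2.09%) were higher and 299 (5.83%) lower, and without the 1-day males 62 were higher. The forkhead gene *slp1* (1.88) was higher, and the junction protein gene *pyd* had 859, 800.5, 846 and 744 CPM in *ort*-positive cells, against 148, 117, 472 and 165 CPM in *ort*-negative cells (log2 fold change 2.16 ± 0.30 (SE), edgeR adjusted p = 0.0021, higher in 4 of 4 libraries). The ligand-gated chloride channel gene *Grd* had 588, 286, 185 and 257 CPM, against 131, 33.4, 135 and 87.3 CPM in *ort*-negative cells (log2 fold change 1.93 ± 0.33 (SE), edgeR adjusted p = 0.0057, higher in 4 of 4 libraries). Neither *pyd* nor *Grd* overlapped between the groups. *bab2* was called at 56.9, 40.2, 48.9 and 57.5 CPM, against 21.8, 11.1, 63.2 and 23.7 CPM in *ort*-negative cells (log2 fold change 1.19 ± 0.31 (SE), edgeR adjusted p = 0.036, higher in 3 of 4 libraries), and was lower in 7-day males. The calls of *bab2* and *slp1* were lost without the 1-day males.

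Lower in *ort*-positive cells were 12 of 37 transcription factors tested, 5 of 10 acetylcholine receptors and 8 of 15 amine receptors, with 3, 0 and 1 higher. Other receptor families went both ways, with 2 higher and 2 lower of 7 GABA receptors (median 0.57), 2 and 1 of 4 glutamate receptors (median 0.36) and 2 and 3 of 11 peptide receptors (median -0.29). The nicotinic subunit gene *nAChRalpha6* had 69.9, 41.7, 38.1 and 57.5 CPM in *ort*-positive cells, against 465, 428, 240.0 and 615 CPM in *ort*-negative cells (log2 fold change -3.00 ± 0.17 (SE), edgeR adjusted p = 5.4e-05, lower in 4 of 4 libraries). *Dop2R* had 134, 118, 10.9 and 36.2 CPM, against 1016, 1874, 206 and 433 CPM in *ort*-negative cells (log2 fold change -3.46 ± 0.22 (SE), edgeR adjusted p = 6.4e-05, lower in 4 of 4 libraries). *bsh* (-4.05), *pdm3* (-3.40), *ap* (-3.29) and the KLF-family gene *luna* (-5.17) were lower among the factors, with the calls of *pdm3* and *ap* lost without the library block. *erm* (0.12) and *zfh1* (0.19) were not called. Of 15 *beat* and *side* genes 11 were lower and 1 higher, with a median log2 fold change of -2.09 beside -0.01 over all genes, and of 55 other adhesion genes 25 were lower and 2 higher (median -0.97). *side-II* (-3.65), *DIP-beta* (-4.23) and *Fas3* (-3.68) were among them, and *Nrg*, the fly L1CAM gene, was higher (1.14). Of 5 glial markers tested *Eaat1* (1.36) was higher and *nrv2* (-2.96) and *Gs2* (-1.20) were lower, and their part in the comparison was not tested.

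The *erm*-positive cells (197, 48, 26 and 99) were set apart by *zfh1*, *NetA* and peptide receptors. Of 5358 genes, 135 (2.52%) were higher and 119 (2.22%) lower than in *erm*-negative cells, and without the 1-day males these counts were 83 and 51. *zfh1* had 305, 251, 170.0 and 235 CPM in *erm*-positive cells, against 10.8, 21.5, 24.6 and 1.80 CPM in *erm*-negative cells (log2 fold change 4.50 ± 0.47 (SE), edgeR adjusted p = 0.0011, higher in 4 of 4 libraries). *NetA* had 356, 295, 323 and 450.4 CPM, against 11.9, 6.28, 43.1 and 1.35 CPM in *erm*-negative cells (log2 fold change 5.14 ± 0.56 (SE), edgeR adjusted p = 0.0014, higher in 4 of 4 libraries). The groups stood far apart for both genes in every library. The nuclear factor gene *dac* was higher as well (2.40), while *bsh* (-2.77) and *pros* (-5.22) were lower, *pros* with overlapping values. Of 37 factors tested 4 were higher and 9 lower.

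Of 13 peptide receptors tested 4 were higher and 1 lower in *erm*-positive cells. The pyrokinin receptor gene *PK2-R1* had 50.4, 23.9, 25.5 and 56.7 CPM, against 4.24, 0.896, 2.05 and 0 CPM in *erm*-negative cells (log2 fold change 4.47 ± 0.54 (SE), edgeR adjusted p = 0.0020, higher in 4 of 4 libraries), and the short neuropeptide F receptor gene *sNPF-R* was higher by 3.15 on the log2 scale. Of 22 *dpr* and *DIP* genes 6 were higher and 4 lower. *dpr6* had 1374, 1208, 1105 and 1016 CPM, against 381, 238, 463 and 228 CPM in *erm*-negative cells (log2 fold change 1.90 ± 0.17 (SE), edgeR adjusted p = 0.00066, higher in 4 of 4 libraries). *dpr1* (2.25) was higher too, and *dpr3* (3.10) was, with its call lost without the 1-day males. *DIP-beta* was lower (-3.22). The immunoglobulin gene *klg* (Klingon) had 912, 602, 960.3 and 719 CPM, against 119.9, 309, 127 and 51.3 CPM in *erm*-negative cells (log2 fold change 2.65 ± 0.40 (SE), edgeR adjusted p = 0.0051, higher in 4 of 4 libraries), and the Toll-family gene *18w* was higher (3.89). *ort* itself did not differ by the test, with 431, 283, 204 and 237 CPM in *erm*-positive and 330.5, 204, 301 and 302 CPM in *erm*-negative cells. Of 15 amine receptors 3 were higher and 4 lower, of 15 *beat* and *side* genes 2 and 7, and of 58 other adhesion genes 12 and 8. Of 5 glial markers tested *axo* (2.34) was higher and *nrv2* (-2.06) lower, and *nrv2* stood at -0.29 without the clusters led by opsins, *Obp44a*, *CG2157* or *Pdh*.

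The *bsh*-positive cells (197, 33, 18 and 118) were low in *ort* and high in *DIP-beta*, *pdm3* and *ap*. Of 4843 genes, 214 (4.42%) were higher and 181 (3.74%) lower than in *bsh*-negative cells, and without the females these counts were 134 and 100. *ort* had 102, 57.6, 0 and 38.5 CPM in *bsh*-positive cells, against 437, 229.8, 308 and 341 CPM in *bsh*-negative cells (log2 fold change -2.62 ± 0.31 (SE), edgeR adjusted p = 0.00080, lower in 4 of 4 libraries). *DIP-beta* had 436, 415, 400.5 and 293 CPM, against 32.3, 25.8, 19.8 and 17.8 CPM in *bsh*-negative cells (log2 fold change 3.96 ± 0.18 (SE), edgeR adjusted p = 2e-05, higher in 4 of 4 libraries). No library's values met for either gene. Among the factors *pdm3* (3.91) and *ap* (2.85) were higher. *zfh1* (-1.51) and *erm* (-1.41) were lower, and both calls were lost without the 1-day males and without the females. *grn* was not called (0.25). Of 37 factors tested 4 were higher and 4 lower.

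Receptors and surface genes were called in both directions. Of 14 amine receptors tested 6 were higher and 3 lower. The octopamine receptor gene *Octbeta1R* had 806, 473, 701 and 1159 CPM in *bsh*-positive cells, against 89.6, 31.3, 46.8 and 29.4 CPM in *bsh*-negative cells (log2 fold change 4.06 ± 0.33 (SE), edgeR adjusted p = 0.00014, higher in 4 of 4 libraries), and the tyramine receptor gene *TyrR* was higher by 3.84 on the log2 scale. Of 13 *beat* and *side* genes 7 were higher and 1 lower, with a median of 1.55 beside -0.02 over all genes. Of 20 *dpr* and *DIP* genes 4 were higher and 4 lower (median -0.01), and of 52 other adhesion genes 17 were higher and 6 lower. *side-VIII* (3.63), *Toll-6* (3.53) and *robo2* (3.34) were higher, and *klg* (-2.50) was lower. The phosphodiesterase gene *Pde8* had 564, 427, 260.3 and 321 CPM, against 24.0, 15.6, 23.4 and 7.73 CPM in *bsh*-negative cells (log2 fold change 4.65 ± 0.26 (SE), edgeR adjusted p = 6.6e-05, higher in 4 of 4 libraries). *Grd* (-2.80) and *GluClalpha* (-1.62) were lower. *Rh6* was called lower as well (-3.88), and stood at 0.30 without the cells that held 1% or more of opsin UMIs. Of 4 glial markers tested *nrv2* (3.03) and *Gat* (1.52) were called higher in *bsh*-positive cells, and their part in the comparison was not tested. Without the clusters led by opsins, *Obp44a*, *CG2157* or *Pdh*, *nrv2* stood at 1.55.

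The *bsh*-positive cells were themselves divided by *pdm3*, a comparison chosen after the levels had been seen. It rests on 3 libraries, since the 7-day males had 6 *pdm3*-positive cells, and on 80, 14 and 68 such cells from 1- and 3-day males and 1-day females. Depth was close on both sides, with medians of 3300, 2114.5 and 4217 UMIs in *pdm3*-positive cells and 2967, 1932 and 4060 UMIs in *pdm3*-negative cells. Of 3377 genes, 188 (5.57%) were higher and 144 (4.26%) lower. These counts were 65 and 81 without the 1-day males and 104 and 88 without the females.

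The factors *slp1* and *slp2* went with *pdm3*, and *grn* and *ap* with its absence. *slp2* had 176, 120.3 and 161 CPM in *pdm3*-positive cells of 1- and 3-day males and 1-day females, against 0, 0 and 21.6 CPM in *pdm3*-negative cells (log2 fold change 4.47 ± 0.64 (SE), edgeR adjusted p = 0.0027, higher in 3 of 3 libraries). *grn* had 149, 313 and 51.0 CPM, against 1102, 974 and 1282 CPM in *pdm3*-negative cells (log2 fold change -3.22 ± 0.41 (SE), edgeR adjusted p = 0.0014, lower in 3 of 3 libraries). *ap* had 31.3, 0 and 5.10 CPM, against 335, 111 and 224 CPM in *pdm3*-negative cells (log2 fold change -3.91 ± 0.39 (SE), edgeR adjusted p = 0.00066, lower in 3 of 3 libraries). Of 33 factors tested 6 were higher and 6 lower, and none of these 3 overlapped between the groups.

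Receptors and surface genes also differed between the *bsh* cells with and without *pdm3*. *Octbeta1R* had 1415, 842 and 1673 CPM in *pdm3*-positive cells, against 219, 133 and 289 CPM in *pdm3*-negative cells (log2 fold change 2.66 ± 0.15 (SE), edgeR adjusted p = 0.00014, higher in 3 of 3 libraries). *TyrR* had 4.82, 24.1 and 0 CPM, against 549, 332 and 371 CPM in *pdm3*-negative cells, from 3 UMIs on the positive side (log2 fold change -6.77 ± 0.49 (SE), edgeR adjusted p = 0.00017, lower in 3 of 3 libraries). These 2 amine receptors, both higher in *bsh*-positive than in *bsh*-negative cells, thus parted on *pdm3*. *DIP-beta* had 31.3, 144 and 15.3 CPM, against 826, 664 and 764 CPM in *pdm3*-negative cells (log2 fold change -4.56 ± 0.42 (SE), edgeR adjusted p = 0.00053, lower in 3 of 3 libraries). *beat-IV* had 36.2, 72.2 and 5.10 CPM, against 769.7, 376 and 885 CPM in *pdm3*-negative cells (log2 fold change -4.96 ± 0.50 (SE), edgeR adjusted p = 0.00066, lower in 3 of 3 libraries). *hig* had 2770.0, 1252 and 1586 CPM, against 105, 221 and 250.3 CPM in *pdm3*-negative cells (log2 fold change 3.51 ± 0.42 (SE), edgeR adjusted p = 0.0011, higher in 3 of 3 libraries). The guidance receptor gene *robo2* (4.88), the leucine-rich repeat gene *caps* (3.18) and the N-cadherin gene *CadN* (2.45) were higher. *Toll-6* (-4.09) and *kirre* (-2.17) were lower, as was *rst* (-3.83), whose call was lost without the 1-day males. Of 14 *dpr* and *DIP* genes 6 were higher and 3 lower, of 12 *beat* and *side* genes 4 and 5, and of 45 other adhesion genes 12 and 5. The glial marker *nrv2*, 1 of 2 tested, was higher (2.23), and its part in the comparison was not tested.

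**Figure D5:**
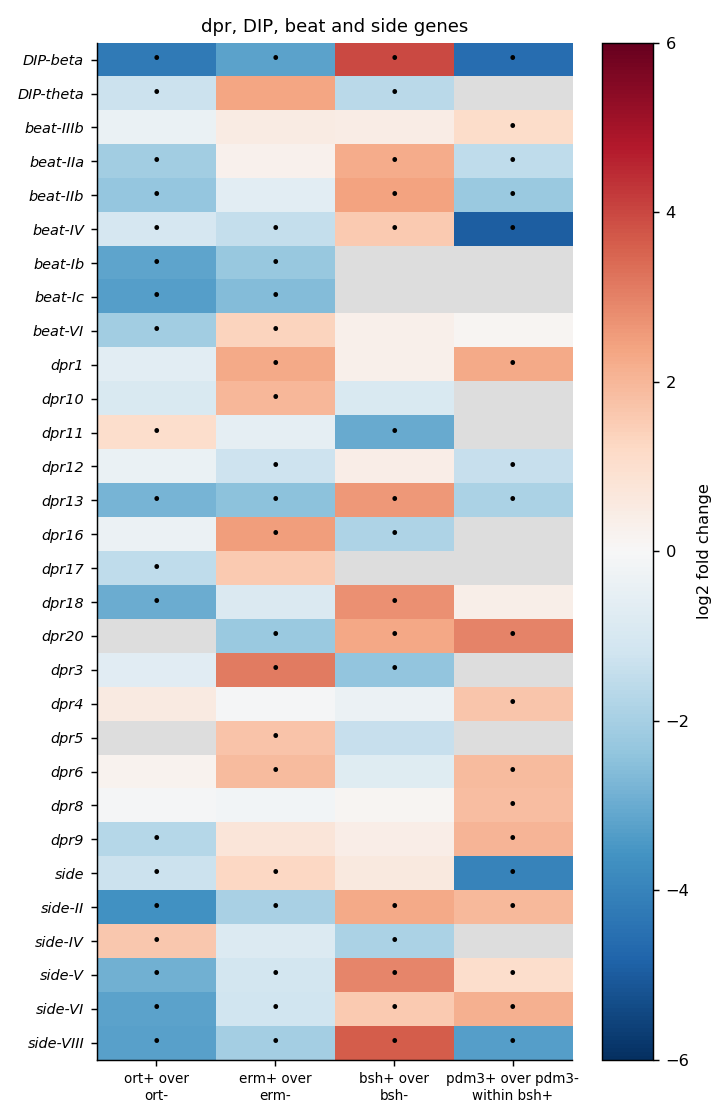
Log2 fold change of *dpr*, *DIP*, *beat* and *side* genes in 4 comparisons within the cholinergic neurons, positive over negative cells; dots mark called genes and grey marks genes not tested. *DIP-beta* was lower in *ort*- and *erm*-positive cells, higher in *bsh*-positive cells, and within these lower in *pdm3*-positive cells.

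Ages and sexes were set side by side with no test, since each is 1 library. Of 4294 genes with at least 100 UMIs over both libraries, 5.61% were over 2-fold higher and 10.2% over 2-fold lower in 3-day than in 1-day males. For 7-day over 1-day males the shares were 3.82% and 10.9% of 3977 genes, and for females over males at 1 day 1.41% and 5.17% of 4754 genes. *bsh* stood at 0.38 of its 1-day male level in 3-day males and at 0.37 in 7-day males, *pdm3* at 0.26 and 0.20, and *ap* at 0.10 and 0.14. *erm* stood at 0.42 in 7-day males, and *ap* at 0.32 in females. The shares of *bsh* cells given above moved with these ratios, but they count UMIs of the same genes. The clusters with *bsh* and *ap* held 119, 24 and 16 cells in 1-, 3- and 7-day males and 42 in females. The part of the cell makeup in these ratios was not tested.

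A few cells carried some of the largest ratios. In 3-day males the neuropeptide gene *FMRFa* had 569 UMIs in 2 cells, and *AstC* 283 UMIs in 1 cell, against none in 1-day males. *Antp* had 267 UMIs in 25 cells of the 3-day males, against none in 1-day males, at least 243-fold higher, and 83.1% of these UMIs lay in 10 cells. Over all libraries *Antp* stood at 488 CPM in cluster 9, which came mostly from 3-day males, and at 0 in the other clusters. In females *mt:ND3*, a mitochondrial gene, had 1474 CPM, against 243 CPM in 1-day males, and was found in 389 of the 399 female cells.

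To hold the makeup closer, the ratios were taken again over cells with *ort* and neither *erm* nor *bsh*, 94 in 3-day males, 82 in 7-day males and 140 in females, against 237 in 1-day males. The shares past 2-fold were then 2.71% higher and 7.59% lower of 2292 genes in 3-day males, 4.55% and 8.33% of 2174 in 7-day males, and 1.07% and 4.84% of 2891 in females. *mt:ND3* kept a ratio of 6.57 in females (1543 CPM, against 235 CPM in 1-day males) and had 3.73 in 3-day males. The headcase gene *hdc* was 4.77-fold higher in 7-day than in 1-day males in these cells (247 CPM, against 51.7 CPM in 1-day males), and 1.76-fold higher over all cholinergic cells. The nicotinic subunit gene *nAChRalpha7* had 45.7 CPM in females, against 493 CPM in 1-day males, a ratio of 0.09. The lowest ratios in females were those of *Nplp2* (0.013) and *apolpp* (0.024). Over 1-day males, *Nplp2* was also low in 3-day (at most 0.040) and 7-day males (0.021), as was *apolpp* (0.024 and 0.038). In 1-day males the 238 UMIs of *Nplp2* lay in only 9 of the 237 cells, so its ratios rest on these few cells. The 130 UMIs of *apolpp* lay in 90 cells. Whether the female ratios come from sex or from the 1-day male library was not tested.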

How the data were processed

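Adult eyes were profiled with 10x 3' chemistry in 4 libraries, 1 per age and sex. The authors deposited raw UMI counts per gene and barcode made with Cell Ranger 6.0.1 on dm6. No replicate libraries, and 0 value columns without a sample, were present. Cells were filtered and gated as given at the start of the report, and no doublet caller was run: cells with both *VAChT* and *VGlut* or *Gad1* fell outside the gates, and the study's own gene limits were an alternative.

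UMIs were summed per library and class, and edgeR 4.0.16 (R 4.3.3) fitted a quasi-likelihood model with library as a block, TMM scaling and a filter on low counts. Benjamini-Hochberg adjustment ran over all genes tested. The SE of a log2 fold change was worked back from the test, as its absolute value over the square root of the quasi-likelihood F statistic. Groups within the cholinergic cells needed at least 10 positive cells per library. DESeq2 1.42.0 was an alternative. The script was tested on simulated data. Clusters came from scanpy 1.11.5 with igraph 0.11.9, on normalised log values. Exact binomial and Poisson 95% intervals cover counting error only. Folds against a group at 0 used a floor of 3 UMIs over that group.

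Named genes were the 10 largest changes each way that held in every library, the listed factors, receptors and adhesion genes, and for age and sex the 5 largest ratios with at least 100 UMIs. The members and lists were chosen with earlier results of these data known. The *pdm3* comparison, the settings without opsin-rich cells, without clusters led by opsins, *Obp44a*, *CG2157* or *Pdh* and with at least 10 GABAergic cells, and the ratios in *ort*-only cells were chosen after seeing the data. Ensembl release 115 gave gene positions.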

Additional observations from a re-analysis of the deposited data

How the results depend on the processing

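Depth limits detection in single cells, GABAergic cells are few, and with 1 library per age and sex no spread within an age was measured. Without the filter on low counts, 404 genes were higher and 171 lower in cholinergic than in glutamatergic neurons, 495 higher than in GABAergic neurons, 636 lower in *ort*-positive cells, 269 lower in *erm*-positive cells, and 385 higher and 304 lower in *bsh*-positive cells. Library was a block in the main fits, which pairs the classes within a library. Without the library block the counts of higher and lower genes were 143 and 64 against glutamatergic neurons, 178 and 82 against GABAergic neurons, 59 and 186 for *ort*, 102 lower for *bsh*, 33 lower for *erm*, and 94 and 95 for *pdm3*. With at least 10 GABAergic cells per library they were 114 and 55. Leaving out 1 library at a time gave 178 to 307 higher and 91 to 149 lower genes against glutamatergic neurons, 195 to 359 and 88 to 195 against GABAergic neurons, 62 to 140 and 206 to 365 for *ort*, 83 to 127 and 51 to 151 for *erm*, 134 to 281 and 100 to 187 for *bsh*, and 65 to 260 and 81 to 180 for *pdm3*. The cholinergic share of gated neurons was 58.4%, 55.4% and 48.0% in the males with *VAChT* at 1 UMI or more, 49.4%, 40.0%, 30.6% and 57.0% with 3 or more, and 36.8%, 26.1%, 25.2% and 24.3% thinned. Without the clusters led by opsins, *Obp44a*, *CG2157* or *Pdh* the log2 fold change over glutamatergic neurons was -1.93 for *Rh3* and -0.64 for *nrv2*, and *Rh6* in *bsh*-positive cells stood at 0.29, or 0.30 without opsin-rich cells. The cause of these changes was not tested. Of the single-gene values recomputed, 87 of 1104 against glutamatergic neurons, 206 of 1411 against GABAergic neurons, 128 of 1726 for *ort*, 138 of 1328 for *erm*, 108 of 1465 for *bsh* and 64 of 1200 for *pdm3* kept their direction but lost the threshold.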

Other observations

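Cells with at least 2 UMIs of both *VAChT* and *VGlut* belong to no class above. They numbered 280, 84 and 144 in 1-, 3- and 7-day males and 88 in 1-day females, which was 26.0%, 24.1%, 42.5% and 17.5% of the gated neurons with 2 or more UMIs of *VAChT*. Their median depth was 14567, 10158, 6972.5 and 21948.5 UMIs, against 3809, 4242, 3283 and 6874 UMIs in the cholinergic cells. They held *svp*, the factor of the glutamatergic group, at 275, 209, 188 and 331 CPM, and *grn*, the factor of the cholinergic group, at 328, 301, 432 and 399 CPM. Both genes were found in the same cell in 82.9%, 78.6%, 62.5% and 96.6% of them. *CG46448*, which was near absent from the cholinergic cells, stood at 794, 1116, 969 and 1189 CPM, and *ort* at 579, 484, 425 and 356 CPM.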
